A study of Homo sapiens with 45 samples.

Results

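The FOS and JUN family was read here as 7 genes, 4 FOS genes (FOS, FOSB, FOSL1 and FOSL2) and 3 JUN genes (JUN, JUNB and JUND), out of 28278 gene names in the count table of 8 RNA libraries. The genes were selected by symbol, and they were picked with the library kits in view: FOSB and JUN had been seen to differ between kits. Values that compare the kits are therefore given below as a description with no test. The cells were HCT116, an established human colorectal carcinoma line, transfected with siRNA at 25 nM and collected after 72 hours. The groups were 4 libraries of the nontargeting siRNA siNTC5, 4 of an siRNA against HNRNPK (siHNRNPK), which encodes an RNA- and DNA-binding protein, and 2 of a nontargeting siRNA called Scramble. All groups carried a transfected siRNA, and no untransfected cells entered the comparisons. The series holds 45 samples, of which 35 are chromatin or input samples, used here through 7 deposited lists of domains.

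The RNA of siNTC5 and siHNRNPK was purified with a Maxwell RSC kit, and that of Scramble with a Qiagen RNeasy mini kit. Replicates 1 and 2 of siNTC5 and siHNRNPK, and both Scramble libraries (replicates 5 and 6), were made with the TruSeq stranded mRNA kit. Replicates 3 and 4 were made with the Stranded mRNA Ligation kit. Each group of siNTC5 and siHNRNPK thus has 2 libraries per kit, and any other difference between those library rounds cannot be told apart from the kit. The labels do not say that replicates came from separate cultures, so the p-values measure the spread between these libraries, which may be technical. Fewer cells of a kind and less RNA per cell cannot be told apart in such bulk libraries.

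FOS and JUN proteins belong to the basic leucine zipper (bZIP) family and bind DNA as dimers called AP-1. JUN proteins can pair with each other or with FOS proteins, whereas FOS proteins need a partner. FOS, FOSB, JUN and JUNB are immediate early genes: serum, growth factors and stress switch them on within minutes through MAP kinases, and their messages are short lived. FOSL1 (FRA-1) and FOSL2 (FRA-2) are induced later and FOSL1 is often abundant in carcinoma cells, while JUND is held at a steadier level in resting cells. In colorectal cells AP-1 acts downstream of RAS and MAP kinase signalling.

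Start-proximal DNA is shown for the 4 genes whose RNA the results turn on. FOS and FOSB had the largest kit differences of the family in control cells, and JUN and JUND moved in opposite directions after knockdown. Each line holds the 100 bases before the start of the gene, 5′ to 3′ on the strand of the gene, from RefSeq (GRCh38.p14). The FOS segment is chr14:75278728-75278827 on the plus strand and the FOSB segment is chr19:45467896-45467995 on the plus strand. The JUN segment is chr1:58784048-58784147 on the minus strand and the JUND segment is chr19:18281623-18281722 on the minus strand. Capitals mark the letters TGACGT in either orientation, the core of a cyclic AMP response element, and the TATA box TATAAA on the strand of the gene.
FOS: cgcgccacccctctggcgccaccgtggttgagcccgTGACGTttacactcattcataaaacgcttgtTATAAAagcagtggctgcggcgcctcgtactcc
FOSB: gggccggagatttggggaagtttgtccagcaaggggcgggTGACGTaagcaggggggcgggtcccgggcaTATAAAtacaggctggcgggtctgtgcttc
JUN: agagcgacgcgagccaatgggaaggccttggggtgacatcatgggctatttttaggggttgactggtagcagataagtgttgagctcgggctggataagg
JUND: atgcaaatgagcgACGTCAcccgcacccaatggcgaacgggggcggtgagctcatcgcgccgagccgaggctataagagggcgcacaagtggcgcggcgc

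FOS and FOSB share the order of the marked letters. TGACGT starts at -64 in FOS and at -60 in FOSB, and TATAAA starts at -33 and -30, with -1 as the last base before the gene. JUN holds neither motif in this segment, and JUND holds TGACGT on the opposite strand (printed as its reverse complement) but not TATAAA. Promoter windows of 300 bases, 250 before and 50 after the start, were at hand for 6 of the 7 genes, without FOSL1. In these windows TGACGT was also found in FOSL2, at -66, and overlapping matches in JUND, at -200 and -198, form the longer palindrome TGACGTCA. TATAAA was also found in JUNB, at -31. The AP-1 site TGACTCA was found only in FOSL2 among these 6 windows, after the start. CCAAT was found in the 3 JUN genes and in no FOS gene with a window. Over 27305 RefSeq windows of the same length, TGACGT on either strand was present in 8.32%, TGACGTCA in 1.98%, TGACTCA in 4.92%, TATAAA on the gene strand in 7.71% and CCAAT on either strand in 35.7%. The TGACGT core was chosen after these sequences were seen, and a match is a description of letters only. The serum response motif known as the CArG box was found in none of the 6 windows and in 1.29% of all. The windows reach only 250 bases before the start, so a CArG box farther upstream would not be seen. The JUND window was the richest in G and C of the 6, at 77%, against 62% in JUN and a median of 58.3% over all windows.

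HNRNPK itself was measured first as a check of the labels. Its level was 934, 967, 822 and 814 CPM (counts divided by the library total and scaled by TMM factors) in siNTC5 replicates 1 to 4, and 250, 223, 157 and 164 CPM in siHNRNPK. The mean fell from 884 ± 78 to 199 ± 45.3 CPM (SD, n = 4). On the log2 scale the change was -2.17 ± 0.06 (SE; adjusted p = 7.29e-15, edgeR quasi-likelihood test with Benjamini-Hochberg adjustment over all tested genes, as for every adjusted p below). Library totals ran from 12107280 to 23633851 counts in the 8 libraries and were 59209169 and 55007171 counts in Scramble. Of the epithelial markers, EPCAM stood at 245 to 250 CPM in siNTC5 and 378 to 418 CPM in siHNRNPK, and KRT19 at 601 to 941 CPM and 273 to 396 CPM. Of the 7 tested epithelial markers 4 were called higher and 3 lower in the knockdown. CLDN3 was low, at 0.626 to 4.06 CPM in siNTC5 and 0.223 to 1.85 CPM in siHNRNPK. VIL1 was near 0, with at most 6 counts in a library. The leukocyte marker CD3E and the fibroblast marker PDGFRA had no count in any of the 8 libraries, and the summed endothelial list reached at most 3.3 CPM, whereas COL1A1 stood between 43.5 and 122 CPM.

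After HNRNPK siRNA, FOS, JUND and JUNB fell, JUN rose and FOSL1 rose slightly, while FOSB and FOSL2 did not pass the test. All 7 genes passed the filter on low counts. The 5 of 7 called at an adjusted p under 0.05 compare with 71.5% of all 13933 tested genes, so the share called is that of genes at large. The 2 that rose compare with 35.5% of tested genes called higher, and the 3 that fell with 36.1% called lower. A change of at least 1 on the log2 scale, past the same threshold, was found in FOS, JUN and JUND, 3 of 7, beside 15.8% of tested genes. The median absolute log2 fold change was 0.70 over the 7 genes and 0.41 over all tested genes, and the signed medians were -0.14 and -0.004.

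**Figure D1:**
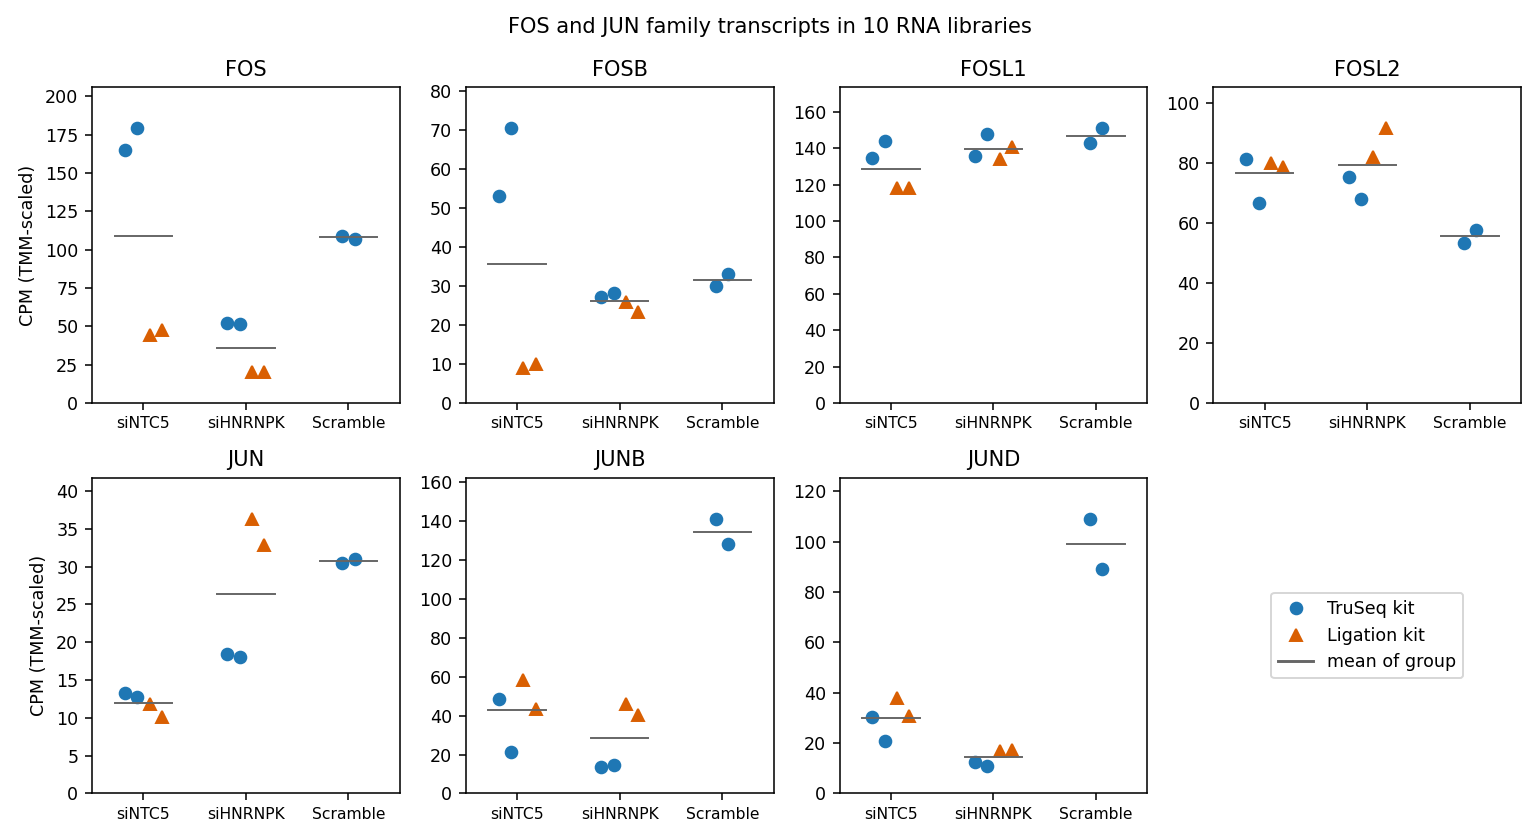
TMM-scaled CPM (linear vertical axes from 0) of the 7 genes in each of 10 RNA libraries, by siRNA on the horizontal axis; blue circles are TruSeq libraries, orange triangles Ligation libraries and grey lines group means. Scramble values were scaled in their own fit. FOS was lower in Ligation than in TruSeq libraries in both siRNA groups, FOSB in siNTC5, and the 4 siHNRNPK libraries lay above every siNTC5 library for JUN and below every one for JUND.

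FOS, the founding member of the family, had the largest drop. It stood at 165, 179, 44.2 and 47.6 CPM in siNTC5 replicates 1 to 4 and at 52.3, 51.3, 20.3 and 20.1 CPM in siHNRNPK. Within each kit both knockdown libraries lay below both controls, but the groups overlapped across kits, since the TruSeq knockdown libraries were above the Ligation controls. The group means were 109 ± 72.8 and 36 ± 18.3 CPM (SD, n = 4), with the spread mostly between kits. With kit in the model FOS fell by 1.51 on the log2 scale (SE 0.08, adjusted p = 1.52e-11, edgeR quasi-likelihood test). A larger absolute change was found in 6.7% of tested genes. The log2 ratio of kit means was -1.73 in TruSeq and -1.18 in Ligation libraries.

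FOSB, a close relative of FOS that is also induced early, had no single direction. It stood at 53.1, 70.4, 8.86 and 9.91 CPM in siNTC5 and at 27.1, 28.1, 25.8 and 23.3 CPM in siHNRNPK. The 4 knockdown libraries were close to each other, and they fell between the TruSeq controls, which were higher, and the Ligation controls, which were lower. The means were 35.5 ± 31 and 26.1 ± 2.06 CPM (SD, n = 4), and the fitted log2 fold change was -0.14 ± 0.31 (SE; edgeR quasi-likelihood test, adjusted p = 0.693). The log2 ratio of knockdown to control was -1.16 in TruSeq and 1.39 in Ligation libraries, so the fitted value averages opposite signs.

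FOSL1 and FOSL2 varied little. FOSL1 stood at 135, 144, 118 and 118 CPM in siNTC5 and at 136, 148, 134 and 141 CPM in siHNRNPK. These ranges overlap, and only siHNRNPK replicate 2 lay above every control. Its log2 fold change was 0.12 ± 0.05 (SE; edgeR quasi-likelihood test, adjusted p = 0.0421), and 83.4% of tested genes changed more. That call was lost when any of 6 single libraries was left out: siNTC5 replicate 1, 3 or 4, or siHNRNPK replicate 2, 3 or 4. The adjusted p reached 0.202, with a log2 fold change of 0.08, without siHNRNPK replicate 4. FOSL2 stood at 81.3, 66.6, 79.9 and 78.8 CPM in siNTC5 and at 75.5, 68, 82.1 and 91.6 CPM in siHNRNPK. The groups overlap, and the log2 fold change was 0.05 ± 0.07 (SE; edgeR quasi-likelihood test, adjusted p = 0.546). FOSL2 overlaps FOSL2-AS1 in RefSeq, and the strand setting of the counting is not given in the sources used here, so reads of the pair may not be told apart.

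JUN, which forms the classical AP-1 dimer with FOS, rose. It stood at 13.3, 12.8, 11.9 and 10.1 CPM in siNTC5 and at 18.5, 18, 36.3 and 32.9 CPM in siHNRNPK. Every knockdown library lay above every control, and the Ligation knockdown libraries were the highest. The mean went from 12 ± 1.39 to 26.4 ± 9.55 CPM (SD, n = 4), and the log2 fold change was 1.07 ± 0.16 (SE; edgeR quasi-likelihood test, adjusted p = 8.14e-06). The log2 ratio of kit means was 0.49 in TruSeq and 1.65 in Ligation libraries.

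JUND, which can restrain proliferation and stands in for JUN in resting cells, fell. It stood at 30.2, 21, 37.8 and 30.7 CPM in siNTC5 and at 12.4, 11.1, 16.9 and 17.1 CPM in siHNRNPK. Every knockdown library lay below every control. The mean went from 29.9 ± 6.92 to 14.4 ± 3.09 CPM (SD, n = 4), and JUND fell by 1.06 on the log2 scale (SE 0.11, adjusted p = 8.25e-08, edgeR quasi-likelihood test). The log2 ratio was -1.12 in TruSeq and -1.01 in Ligation libraries. JUN and JUND were the only members whose groups did not overlap, 2 of 7 beside 56.5% of tested genes.

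JUNB, a weaker activator than JUN that can oppose it, was the most uneven of the falling genes. It stood at 48.5, 21.3, 58.2 and 43.6 CPM in siNTC5 and at 13.4, 14.6, 46.2 and 40.2 CPM in siHNRNPK. The groups overlap: the TruSeq knockdown libraries were below every control, and the Ligation knockdown libraries lay within the control range. JUNB fell by 0.70 on the log2 scale (SE 0.21, adjusted p = 0.00595, edgeR quasi-likelihood test), from 42.9 ± 15.7 to 28.6 ± 17 CPM (SD, n = 4). The log2 ratio of kit means was -1.32 in TruSeq and -0.24 in Ligation libraries. The fitted change was -0.36 without siNTC5 replicate 1. The call was lost with DESeq2 (-0.77, adjusted p = 0.0515), without kit in the model (-0.59, adjusted p = 0.224) and with the Scramble libraries as added controls (-1.54, adjusted p = 0.0955). JUNB overlaps HOOK2 in RefSeq, with the same limit on strand as FOSL2.

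The balance among JUN genes can be read per gene length, since their RefSeq genes span 3257 bases (JUN), 1830 bases (JUNB) and 1929 bases (JUND). In CPM per kilobase, the mean level in siNTC5 was 3.69 ± 0.426 for JUN, 15.5 ± 3.59 for JUND and 23.4 ± 8.55 for JUNB (SD, n = 4). In siHNRNPK the mean levels were 8.11 ± 2.93 for JUN, 7.45 ± 1.6 for JUND and 15.6 ± 9.31 for JUNB (SD, n = 4). JUN was thus the lowest of the 3 in every control library. In siHNRNPK the mean JUN and JUND levels lie within their spread of each other, and their order differed by kit. JUN was at 5.67 and 5.54 in the TruSeq knockdown libraries, below JUND at 6.42 and 5.74. It was at 11.2 and 10.1 in the Ligation knockdown libraries, above JUND at 8.74 and 8.89.

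Ratios of counts within a library restate the values above without any scaling between libraries. JUN counts per JUND count were 0.44, 0.61, 0.315 and 0.33 in siNTC5, and 1.49, 1.63, 2.15 and 1.92 in siHNRNPK. FOSB counts per FOS count were 0.323, 0.394, 0.201 and 0.208 in siNTC5, and 0.518, 0.547, 1.27 and 1.16 in siHNRNPK. Both ratios were higher in each of the 4 knockdown libraries than in each of the 4 controls. They are built from the same counts as the values above and add no separate support. FOS fell in both kits and FOSB had no single direction, so the higher ratio of FOSB to FOS is not a rise of FOSB. No background over other gene pairs was drawn. FOSL1 counts per FOS count were 0.82 and 0.805 in the TruSeq controls, 2.68 and 2.48 in the Ligation controls, and between 2.6 and 7.01 in siHNRNPK.

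**Figure D2:**
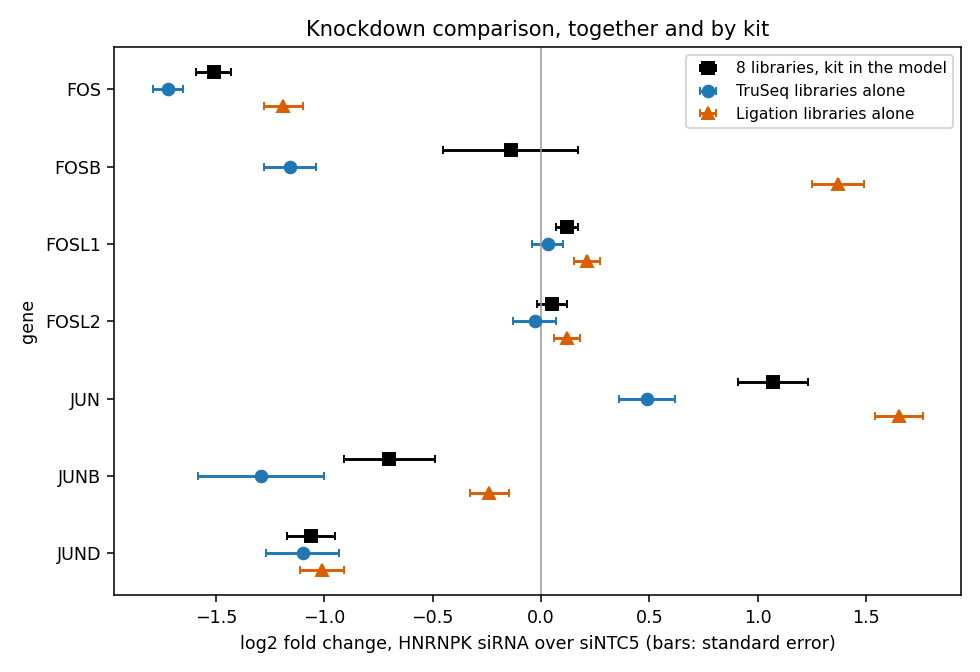
Log2 fold change of siHNRNPK over siNTC5 (horizontal axis) for the 7 genes, from the edgeR fit of 8 libraries with kit in the model (black squares), TruSeq libraries alone (blue circles) and Ligation libraries alone (orange triangles), with standard errors as bars. FOSB lies on opposite sides of 0 in the kits, and FOS and JUND lie below 0 in each.

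**Figure D3:**
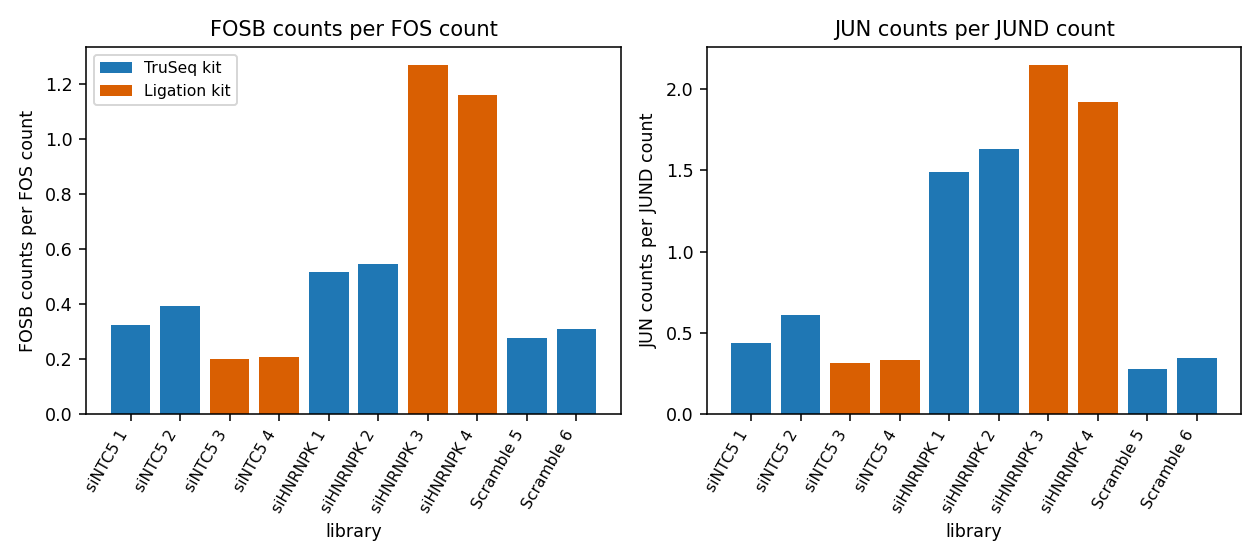
FOSB counts per FOS count (left) and JUN counts per JUND count (right) in each of 10 RNA libraries on linear axes from 0; bar colour gives the kit. JUN per JUND ran from 0.315 to 0.61 in siNTC5 and from 1.49 to 2.15 in siHNRNPK.

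The kit differences that led to the choice of these genes are given as a description. In siNTC5, FOSB was 61.7 CPM on average in TruSeq and 9.38 CPM in Ligation libraries, a log2 ratio of Ligation to TruSeq of -2.72. FOS was 172 and 45.9 CPM, a log2 ratio of -1.90. With 0.5 CPM added, FOSB had the 2nd and FOS the 3rd largest kit difference in controls among 13933 tested genes, whose median absolute log2 ratio was 0.16. In siHNRNPK the log2 kit ratio was -1.36 for FOS but -0.17 for FOSB. JUN had a log2 kit ratio of -0.24 in siNTC5, of the same sign as FOS and FOSB, and of 0.92 in siHNRNPK. JUNB was higher on average in Ligation libraries in both groups, with log2 ratios of 0.55 and 1.63, and JUND with 0.42 and 0.54. For JUNB the kits overlapped in siNTC5, with TruSeq replicate 1 at 48.5 CPM and Ligation replicate 4 at 43.6 CPM. FOSL1 and FOSL2 had log2 kit ratios between -0.24 and 0.28. The other 20 tested early genes had a median log2 kit ratio of 0.02 in siNTC5, with a range of -1.36 to 0.75, and of 0.16 in siHNRNPK. Their median in controls was thus near 0, whereas FOS and FOSB were below the lowest of them.

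FOSB and JUN profiles over the 8 libraries were matched to all tested genes by Pearson's r of log2 CPM. The 5 genes nearest to FOSB were ADNP2 (r = 0.974), RRP9 (r = 0.971), SOD2 (r = 0.959), PSMA6 (r = 0.955) and YY1 (r = 0.955). Their range was far narrower: ADNP2 averaged 153 CPM in TruSeq controls and 126 CPM in Ligation controls. The nearest to JUN were ATAD3B (r = 0.996), PTPN11 (r = 0.984), PTPRJ (r = 0.982), TAF1A (r = 0.981) and HOXB7 (r = 0.977). ATAD3B went from 63.4 and 56 CPM in TruSeq and Ligation controls to 74.9 and 102 CPM in the knockdown. Within the family, FOSL1 was nearest to FOSB (r = 0.797). These r values are over 8 libraries that share their kits and treatments, and they were ranked among 13933 genes.

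Scramble and siNTC5 are both nontargeting, yet they differed at most members. Scramble was higher than siNTC5 for JUN, JUNB and JUND and lower for FOS, FOSB and FOSL2, while FOSL1 did not pass the test. These 6 of 7 called compare with 68.6% of 14263 tested genes, the 3 higher with 35.1% and the 3 lower with 33.5%. The siRNA, the purification kit, the depth and the count table differ together between these groups and cannot be told apart. Some genes outside the family had very large values here, with log2 fold changes of 16.10 for TAF15 and 12.04 for RPS18. How far the share called reflects counting rather than expression was not tested. HNRNPK was 789 and 828 CPM in Scramble, a log2 fold change of -0.24 against siNTC5 (adjusted p = 0.0016, edgeR quasi-likelihood test).

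JUNB stood at 141 and 128 CPM in Scramble, above every siNTC5 library, with a log2 fold change of 1.98 ± 0.25 (SE; edgeR quasi-likelihood test, adjusted p = 1.34e-05). JUND stood at 109 and 89 CPM, again above every siNTC5 library, with a log2 fold change of 1.97 ± 0.15 (SE; edgeR quasi-likelihood test, adjusted p = 1.34e-07). JUN stood at 30.5 and 31 CPM, with a log2 fold change of 1.24 ± 0.10 (SE; edgeR quasi-likelihood test, adjusted p = 2.44e-07). The JUNB value was 2.66 without siNTC5 replicate 1 and 1.47 without siNTC5 replicate 2. For these 3 JUN genes neither Scramble library overlapped the siNTC5 range.

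FOS stood at 109 and 107 CPM in Scramble, between the TruSeq and the Ligation siNTC5 libraries. With kit in the model it was lower by a log2 fold change of -0.67 ± 0.06 (SE; edgeR quasi-likelihood test, adjusted p = 1.10e-06), and without kit in the model the value was -0.02 (adjusted p = 0.98). FOSB stood at 30 and 33 CPM, with a log2 fold change of -0.98 ± 0.11 (SE; edgeR quasi-likelihood test, adjusted p = 8.38e-06) and of -0.19 (adjusted p = 0.827) without kit. FOSL2, at 53.3 and 57.8 CPM, lay below every siNTC5 library (log2 fold change -0.41 ± 0.09, SE, adjusted p = 0.00105, edgeR quasi-likelihood test). FOSL1, at 143 and 151 CPM, had a log2 fold change of 0.07 ± 0.06 (SE; edgeR quasi-likelihood test, adjusted p = 0.279).

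**Figure D4:**
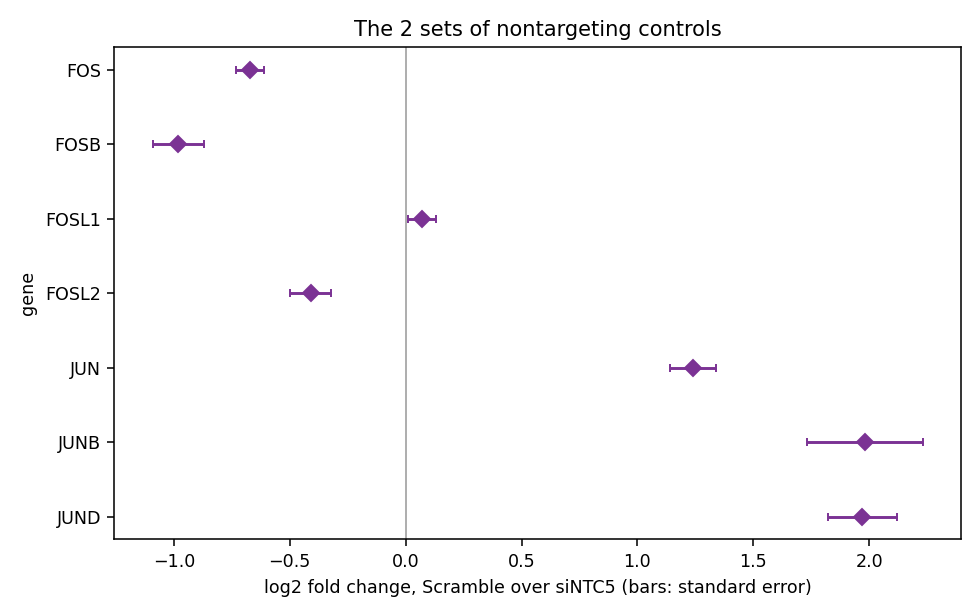
Log2 fold change of Scramble over siNTC5 (horizontal axis) for the 7 genes, from the edgeR fit with kit in the model, with standard errors as bars. JUNB and JUND lie at 1.98 and 1.97, and FOSB lies lowest at -0.98.

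The knockdown and Scramble comparisons share the siNTC5 libraries, so their values are set side by side only. JUN was at 1.07 in the knockdown comparison and 1.24 in the Scramble comparison, JUNB at -0.70 and 1.98, JUND at -1.06 and 1.97, and FOS at -1.51 and -0.67. In level, JUN was 26.4 CPM on average in siHNRNPK and 30.7 CPM in Scramble, beside 12 CPM in siNTC5. When the Scramble libraries were added to the controls, the JUN rise was 0.57 ± 0.46 (SE; edgeR quasi-likelihood test, adjusted p = 0.328). JUN therefore passed the test against siNTC5 alone and not against the pooled nontargeting controls. JUND, at -1.81, and FOS, at -1.33, kept their calls in that fit (adjusted p = 0.0219 and 1.29e-04, edgeR quasi-likelihood test).

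Other genes of the pathway were read from lists chosen by role, with earlier results of these data known. The list counts are therefore a description. The dimer partners are bZIP proteins that pair with FOS or JUN proteins. Of 17 listed, 13 were tested, 9 rose, 1 fell and 3 did not pass the test in the knockdown comparison, with a median log2 fold change of 0.85 beside -0.004 over all tested genes, of which 35.5% were called higher and 36.1% lower. CREB5, which pairs with JUN, rose by 3.42, from at most 1.2 CPM in controls to at least 7.58 CPM in siHNRNPK. ATF3, a stress-induced partner of JUN, rose by 2.34 on the log2 scale, from between 18.1 and 30.2 CPM to between 106 and 135 CPM. DDIT3 (CHOP, 1.84) and ATF4 (1.06), both of the integrated stress response, rose, as did BATF2 (1.81) and JDP2 (1.26). The nontargeting Scramble libraries were also above siNTC5 at these genes, by 1.96 for CREB5, 1.83 for ATF3, 2.08 for DDIT3, 1.14 for ATF4, 2.27 for BATF2 and 2.74 for JDP2 on the log2 scale. The median of the partners in that comparison, which shares the siNTC5 libraries, was 1.14. JDP2, a repressor of AP-1, lies 145 kb from FOS on chromosome 14. It went from 6.64, 4.93, 10.9 and 10.9 CPM in siNTC5 to 19.8, 16.3, 19.9 and 21 CPM in siHNRNPK, with no overlap, while FOS fell. The adjusted p was 1.49e-07 for JDP2 (edgeR quasi-likelihood test).

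Kinases and promoter factors upstream of the family moved in both directions. Of 34 listed, 32 were tested, 9 rose, 16 fell and 7 did not pass the test, with a median log2 fold change of -0.14, beside the 35.5% of all tested genes called higher and 36.1% called lower. The ERK pathway members MAP2K2 (MEK2, -1.38) and MAPK3 (ERK1, -1.11) and the kinase RPS6KA2 (-1.26) fell most. MAP2K2 went from between 82.8 and 120 CPM to between 30.8 and 45.1 CPM, and MAPK3 from between 66.6 and 78.4 CPM to between 30 and 36.2 CPM. Of the JNK kinases, which phosphorylate JUN, MAPK8 (JNK1) rose by 0.53 and MAPK9 (JNK2) fell by 0.60, and SRF, which acts at the FOS promoter, fell by 0.39. Of 14 tested factors of message decay and protein breakdown, 7 rose and 5 fell, beside 71.5% of all tested genes called in either direction, and none changed by as much as 1 on the log2 scale. Among these, ZFP36, which binds AU-rich messages such as that of FOS, had a log2 fold change of -0.40, and ZFP36L2 one of 0.56. MAPK8, MAPK9, SRF, ZFP36 and ZFP36L2 were singled out after their values were seen.

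Of 38 listed textbook AP-1 target genes, 26 were tested, 9 rose, 9 fell and 8 did not pass the test, with a median of 0.08. These shares are close to the 35.5% and 36.1% of all tested genes called higher and lower. CXCL8, the neutrophil chemokine, rose by 4.37 on the log2 scale, from at most 2.08 CPM in controls to at least 30.3 CPM in siHNRNPK. IL1A (2.25) and the laminin chain LAMB3 (1.22) rose, and the cytokine LIF (-1.64) and vimentin, VIM (-1.67), fell. LIF went from between 163 and 201 CPM to between 55.5 and 63.1 CPM. IL1A and VIM were low, at 0.283 and 2.82 CPM on average in siNTC5 and 1.33 and 0.883 CPM in siHNRNPK. The nontargeting Scramble libraries were above siNTC5 by 1.84 for LAMB3, 0.40 for LIF and 0.60 for VIM on the log2 scale. CXCL8, at 0.07, did not pass the test there, and IL1A had no value in that comparison. The collagenase and stromelysin genes MMP1, MMP3 and MMP13 did not pass the filter on low counts and were not tested.

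Of 20 tested early genes outside the family, 8 rose, 8 fell and 4 did not pass the test, with a median of -0.13, again close to the 35.5% and 36.1% over all tested genes. EGR1, an early zinc finger gene, stood at 274, 293, 196 and 197 CPM in siNTC5 and at 87.1, 84.4, 61.3 and 65 CPM in siHNRNPK, a log2 fold change of -1.68 ± 0.05 (SE; edgeR quasi-likelihood test, adjusted p = 7.29e-15). It was lower in Ligation than in TruSeq libraries in both groups, as FOS was, by less. KLF2 fell by 2.66, and CCN2 (2.48), NR4A3 (1.74), CCN1 (1.64) and GADD45B (1.36) rose. The nontargeting Scramble libraries were above siNTC5 by 1.80 for GADD45B, 2.08 for KLF2 and 0.59 for EGR1 on the log2 scale. NR4A3, at 0.41, did not pass the test there, and CCN1 and CCN2 had no value in that comparison. CCN1 was at 41.8 and 47.7 CPM in the TruSeq controls and at 16.1 and 18.2 CPM in the Ligation controls, so a kit difference in controls was not confined to FOS and FOSB. In the Scramble comparison 15 of 19 tested early genes, 10 of 13 partners and 20 of 27 targets were called higher than in siNTC5. In these lists 1, 0 and 0 were called lower, beside 35.1% higher and 33.5% lower over all tested genes. Of 31 tested kinases and promoter factors 14 were called higher and 8 lower, and of 13 turnover factors 5 and 2.

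**Figure D5:**
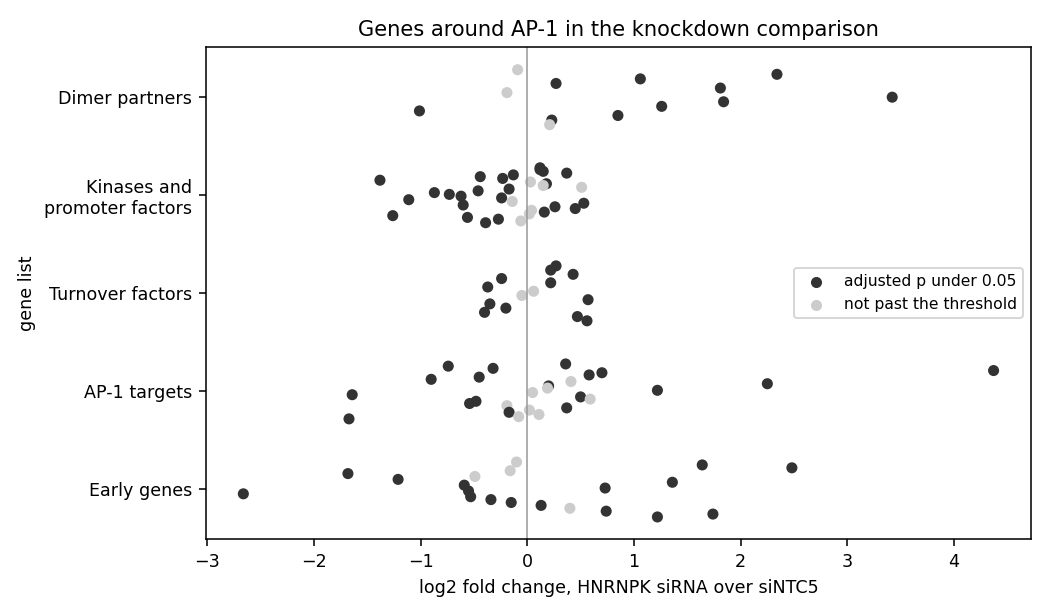
Log2 fold change of siHNRNPK over siNTC5 (horizontal axis) for each tested gene of 5 lists around AP-1 (vertical axis, spread by name within a list); dark points passed an adjusted p under 0.05. Of 13 tested dimer partners 9 rose and 1 fell, and targets and early genes lie on both sides of 0.

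Domains of lamin B1 (LMNB1), which lines the nuclear edge, and of the repressive histone marks H3K9me2, H3K9me3 and H3K27me3 had been called in control and, except for H3K9me2, knockdown cells. None of the 7 genes touched a domain in any of the 7 lists. Of tested genes with a position, 2.96% lay at least 50% inside a control LMNB1 domain, 2.94% in H3K9me3, 1.2% in H3K9me2 and 9.83% in H3K27me3, so 0 of 7 is close to this background. In the knockdown lists these shares were 2.57% for LMNB1, 5.9% for H3K9me3 and 8.4% for H3K27me3. No replicate lists entered, so distances carry no error.

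FOS (chr14:75278828-75282230) was the member nearest to any domain, 12.8 kb from an H3K27me3 domain in both conditions. That domain starts between FOS and JDP2. BATF, a lymphoid partner of JUN 240 kb from FOS, had no count in the 8 libraries and lay wholly inside an H3K27me3 domain in both lists, while JDP2 lay outside; BATF was singled out after its values were seen. JUN (chr1:58780791-58784047) was 281 kb from an LMNB1 domain in control and 401 kb in knockdown cells. JUNB (chr19:12791486-12793315) was 136 kb from H3K9me3 in both, and 241 kb and 641 kb from LMNB1. FOSB (chr19:45467996-45475179) and FOSL2 (chr2:28392858-28417317) had the largest increases in distance to LMNB1, from 983 to 6440 kb and from 873 to 5173 kb. Their nearest control domains had scores of 0.62 and 0.66, beside 0.68 (FOSL1) to 2.03 (JUN) for the other members. The nearest LMNB1 domain was farther in knockdown cells for all 7 genes. Over all genes with a position, the share inside an LMNB1 domain was 13% in the control list and 9.23% in the knockdown list. For H3K9me3 these shares were 9.43% and 13.3%. Whether genes at large shifted in distance the same way was not tested. The nearest H3K9me3 domain was closer in knockdown cells for 6 of 7 genes, all but JUNB: at 1974 kb instead of 4999 kb for FOSL1, 283 kb instead of 3173 kb for FOS, 193 kb instead of 2248 kb for FOSL2 and 386 kb instead of 766 kb for JUN. For JUND it was 1315 kb instead of 1378 kb, and for FOSB 575 kb instead of 585 kb. For these 6 genes the nearest knockdown H3K9me3 domains were 60 to 100 kb long, with scores of 0.46 to 0.68. The nearest control ones were 70 to 1825 kb long, with scores of 0.51 to 1.38. FOSL1 (chr11:65892049-65900545) and JUND (chr19:18279694-18281622) were farther from any domain, with nearest distances of 1157 kb and 1240 kb over all lists.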

How the data were processed

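The authors deposited raw counts per gene symbol, as 1 table of 8 RNA libraries and single tables of the Scramble libraries. Per the submitters' processing notes, reads were aligned with STAR 2.7.1a and counted with featureCounts against hg38 (the Scramble notes also list hg19 and DESeq2). The strand setting is not given in the sources used here. The deposited ChIP domain lists hold a score per domain whose unit is not given; Bowtie2 2.5.1 and deepTools 3.1.3 are named in the submitters' processing notes.

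Counts were fitted with edgeR 4.0.16 (R 4.3.3, filterByExpr, TMM, quasi-likelihood test, kit and treatment in the model), with Benjamini-Hochberg adjustment over all tested genes and a threshold of 0.05. DESeq2 1.42.0 was an alternative. Scramble was compared on 25527 shared names. The scripts were tested on simulated data. Library totals ran from 12107280 to 59209169 counts. RefSeq positions (GRCh38.p14) placed genes in domains when at least 50% of the body was covered.

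Members and lists were chosen with earlier results of these data known. Named list genes were called genes with a change of at least 1 on the log2 scale in either direction, at most 6 per list, and others are marked as chosen after their values were seen. Libraries with the same replicate number deviated together from their group means (r across genes of 0.1004, 0.4246, 0.3365 and 0.2653 for numbers 1 to 4), and with group and kit means removed r was between 0.0090 and 0.0582. A replicate block was run as an alternative. Mitochondrial genes were not analysed here.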

Additional observations from a re-analysis of the deposited data

Results flagged for a closer look

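The knockdown effect on FOSB had opposite signs in the kits: every TruSeq knockdown library lay below both TruSeq controls and every Ligation knockdown library above both Ligation controls. The log2 ratio in Ligation minus that in TruSeq libraries was 2.55, and the difference was not tested because the kits entered the choice of the gene. None of 14 groups of 4 libraries looked at, 7 genes in siNTC5 and siHNRNPK, held a library with a gap over Dixon's critical value. FOSL2 in siNTC5 came closest, just under that value, with replicate 2 the lowest library. Chance alone would set off about 5% of groups. Each group holds 2 libraries per kit, so a gene that differs between kits splits 2 against 2. For such genes the test cannot tell whether a single library stood apart.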

How the results depend on the processing

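The number of members called in the knockdown comparison was 5, and it was 3 without a kit term and 2 with the Scramble libraries as added controls; the cause was not tested. Leaving out 1 library at a time gave 4 to 5 members and 9612 to 9997 genes called in that comparison, and 6 members throughout and 8667 to 9897 genes in the Scramble comparison. The FOSB log2 fold change reversed in Ligation libraries alone, at 1.37. With the replicate block in place of kit, 9872 genes and 5 members were called, JUN was at 1.07 and JUNB at -0.67, and no member changed its call. FOS and JUND kept direction and call in all 18 alternatives of the knockdown comparison, with ranges of -1.72 to -1.19 and of -1.81 to -0.94. JUN lost its call in 1 of 18, JUNB in 3 and FOSL1 in 10. No member was inside a domain with any overlap of the gene counted, with domains of at least 10 kb or with the upper scores alone. With 50 kb added on each side of the gene, no such window was covered by at least 50%, though that of FOS reached the H3K27me3 domain 12.8 kb away. The limits are 2 libraries per kit and group, and kit and library round that cannot be told apart.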
